A study of Mus musculus with 24 samples.

Results

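The genes described are 9 genes that move, oxidise, store or sense iron: Cp, Heph, Trf, Tfrc, Slc11a2, Fth1, Ftl1, Slc40a1 and Hamp. They were found through the transcript accession printed beside each probe of an Agilent Whole Mouse Genome array, which gave 12 of the 41174 probes and 9 of the 18539 named genes. Slc11a2 had 3 probes, Heph had 2 and every other gene had 1, and the brightest probe of a gene was used. Cp was chosen by its measured level on these arrays, which was already known to differ between the strains. Its strain, diet and tissue values are therefore given as a description, and no test is drawn from them.

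The study asked how the endothelium of galectin-3-deficient mice answers a diabetogenic diet. Male wild-type C57BL/6 mice (WT) and mice homozygous for a targeted deletion within Lgals3, the galectin-3 gene (KO), were fed from 8 weeks of age on a high-fat diet with 60% fat calories (HFD) or on chow with 12% for 8 weeks. Live CD105+/CD45- cells were sorted from the pooled aortae and from the pooled leg muscles (plantaris, gastrocnemius and biceps femoris) of several animals per diet and strain, after adherent fat had been removed, and amplified RNA was hybridised in 1 colour. The 24 arrays form 8 groups of 3, for WT and KO, chow and HFD, aorta and muscle. The 3 arrays of a group come from 3 independent experiments, and a value belongs to a pool and not to a single mouse. Each of the 6 slides carried the 4 groups of 1 tissue and 1 experiment, and experiment 1 was scanned in an earlier session than experiments 2 and 3.

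Iron travels in plasma bound to transferrin, enters cells through the transferrin receptor and crosses the endosomal membrane through the divalent metal transporter encoded by Slc11a2. Iron that is not used is held in ferritin, and iron that leaves the cell passes through ferroportin, the only known iron exporter of mammals. The exported ferrous ion is oxidised by a copper-dependent ferroxidase, either ceruloplasmin or hephaestin, before transferrin can bind it. Hepcidin, a liver hormone, closes the route by removing ferroportin from the cell surface. Endothelium is the layer through which iron passes between blood and tissue.

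Every value below is a log2 level, the log2 of a probe's processed signal over the 75th percentile of its array, so that 0 is the 75th percentile and a step of 1 is a doubling. The 75th percentile itself lay between 2390 and 5938 signal units, and between 59.5% and 75.7% of the probes were well above background on an array. No spot was saturated. Levels are compared between arrays for 1 probe and never between probes. In sorted and pooled cells, fewer cells of a type and less RNA per cell cannot be told apart.

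The labels were examined before the genes were read. The probe of Lgals3 was higher on the KO array in 11 of 12 pairs of arrays, by 1.28 ± 0.28 (log2, SE). Where this probe lies relative to the deleted part of the gene was not analysed, so it checks nothing. With 33 other probes, picked for a strain difference in experiments 2 and 3, each array of experiment 1 was placed on a scale on which 0 is the WT mean and 1 the KO mean of those experiments. The 4 chow arrays of experiment 1 stood at 0.03 and 1.02 in aorta and at 0.08 and 0.91 in muscle, WT first. The 4 HFD arrays of experiment 1 stood between the strains, at 0.20 for the array labelled WT and 0.40 for the array labelled KO in aorta, and at 0.33 and 0.38 in muscle. On the same scale Cp stood at 0.20 and 0.15 on the 2 aortic HFD arrays and at 0.45 and 0.43 on the 2 muscle HFD arrays. The HFD arrays of experiment 1 are therefore called by their labels, and results that rest on them are given with and without them.

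**Figure D1:**
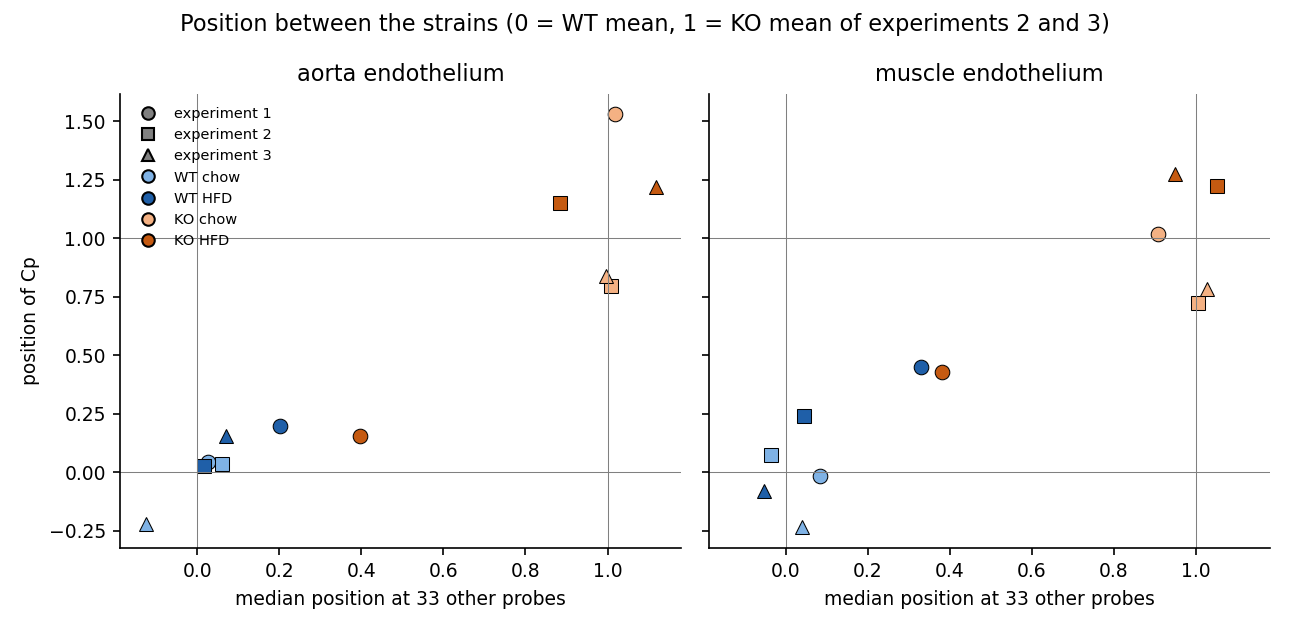
Position of each array between the strains, at the 33 other probes (x axis, median, no unit) and at Cp (y axis, no unit), for aortic and muscle endothelium. Colours give strain and diet and symbols the experiment. The arrays of experiments 2 and 3 lie near 0 or 1 because their means define the scale, and the HFD arrays of experiment 1 lie between, at 0.20 and 0.40 in aorta and 0.33 and 0.38 in muscle.

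All 10 endothelial markers, Pecam1, Cdh5, Kdr, Tek, Tie1, Eng, Erg, Emcn, Esam and Vwf, were well above background on every array. Markers of other cells were present too. All 6 fibroblast markers were well above background on every array, and 7 of 8 adipocyte markers on every aortic array. Of the 9 hepatocyte markers with a probe, the list of the cell type that makes most plasma ceruloplasmin, transferrin and hepcidin, 3 to 6 were well above background on an array, 2 of them on every aortic array and 1 on every muscle array. Apoa1, Ttr and Fga were so on no array.

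Ceruloplasmin, the secreted and membrane-anchored multicopper ferroxidase, is encoded by Cp on mouse chromosome 3. RefSeq's promoter table for GRCm38.p6 lists 2 starts for Cp that are 195 bases apart. The 30-base stretches around the motif matches before the downstream start, at chr3:19957249 on the plus strand, are shown. The motifs were searched for as basal and liver-type elements, and Cp is the gene described first below. Capitals mark the matches, to TTGCNNAA on the minus strand in the first and to TATAAA in the second, where 2 overlapping matches lie on opposite strands.
Cp, C/EBP-type match, chr3:19957168-19957197: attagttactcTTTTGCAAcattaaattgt
Cp, TATA match, chr3:19957211-19957240: atgaagccctaTTTATAAAattgcttgctt
The first stretch covers bases 81 to 52 before the downstream start and the second covers bases 38 to 9 before it. On either strand of the 250 bases before a start, TTGCNNAA occurred in 9.56% and TATAAA in 12.4% of 32851 mouse promoter windows. The 250 bases before the upstream start of Cp held neither. TTCNNNGAA, a STAT-type motif found in 7.02% of windows, and GGGCGG, the GC box found in 32.7%, were in no window of Cp, and the STAT-type motif was in the 1 window of Hamp. Windows were also listed for Tfrc, Fth1, Ftl1 and Hamp. A match is a description of the letters in the window.

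Cp was lower on KO than on WT arrays in both tissues and on both diets, and higher in aorta than in muscle in each strain and diet. In aorta on chow, the level of Cp was 3.76, 3.78 and 4.60 on the WT arrays of experiments 1, 2 and 3, and -1.03, 1.34 and 1.19 on the KO arrays. In aorta on HFD it was 3.26, 3.80 and 3.39 on the WT arrays and 3.40, 0.19 and -0.03 on the KO arrays. The 6 WT arrays lay close together, and the 1 KO array that reached them was the HFD array of experiment 1. In muscle on chow, the level of Cp was 1.47, 1.17 and 2.17 on the WT arrays and -1.86, -0.91 and -1.10 on the KO arrays. In muscle on HFD it was -0.03, 0.65 and 1.67 on the WT arrays and 0.04, -2.52 and -2.68 on the KO arrays. On chow the strains did not overlap in either tissue, as was so with KO lower for 2.83% of all probes tested in aorta and 3.48% in muscle. On HFD they overlapped in both, and the array labelled KO of experiment 1 was the one among the WT values.

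**Figure D2:**
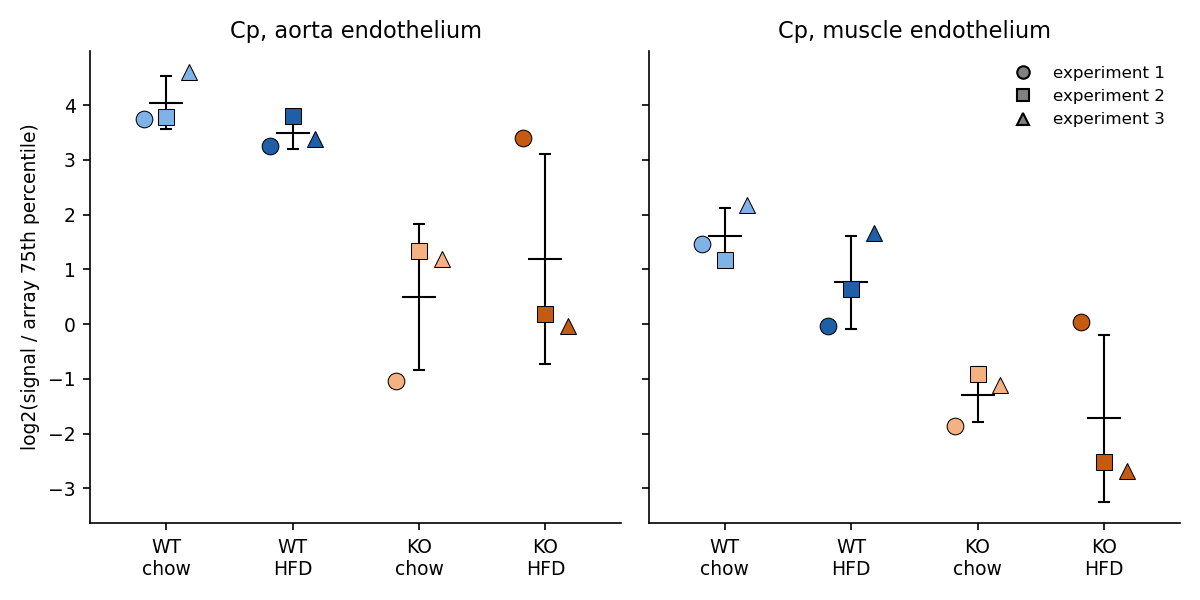
Level of Cp (y axis, log2 of the signal over the array's 75th percentile) on each of the 24 arrays by strain and diet, with symbols for the experiment and bars for the mean and SD of 3 arrays. The KO arrays lie below the WT arrays, except for the KO HFD array of experiment 1, at 3.40 in aorta and 0.04 in muscle.

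Over all 24 arrays, Cp was 2.80 ± 0.40 lower in KO than in WT (log2, SE), a 6.99-fold difference, and it was lower on the KO array in 10 of 12 pairs. Both exceptions were the HFD pairs of experiment 1, at 0.14 in aorta and 0.06 in muscle. Without the 4 HFD arrays of experiment 1 the difference was -3.39 ± 0.28. Within a tissue and diet the difference was -3.55 ± 0.86 in aorta on chow, -2.30 ± 0.86 in aorta on HFD, -2.89 ± 0.68 in muscle on chow and -2.48 ± 0.68 in muscle on HFD. The values on HFD became -3.52 and -3.75 without the arrays of experiment 1. Over the 24 arrays 38 of 27387 probes passed at an adjusted p under 0.05 (0.139%, with 0.0657% higher and 0.073% lower in KO), and Cp was the 1 of 8 tested genes among them. That count became 0 without experiment 2 or without experiment 3. Since Cp was chosen with this contrast known, nothing is read from its place there.

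The other 7 tested genes differed between the strains by -0.20 to 0.49 over the 24 arrays, and their 95% intervals reached from -0.93 to 1.47. The widest of these intervals was that of Slc40a1, at -0.50 to 1.47, so that differences of this size could not be shown by this fit. The fit held no block for the slides, which WT and KO arrays share. Within a tissue and diet, 0 of these 7 genes passed in limma's test in any of the 4 strain comparisons, where 0.0116% of all tested probes did in aorta on chow, 0.00387% in aorta on HFD and 0% in muscle on either diet. At an unadjusted p under 0.05 the count was again 0 of 7 in each of these and over the 24 arrays, beside 4.41% and 1.15% of probes in aorta on chow and HFD, 2.42% and 3.15% in muscle and 4.35% over the 24 arrays. Cp is left out of these counts because it was chosen with the strain difference known. No marker of any of the 10 cell types passed between the strains over the 24 arrays, and the median differences of the lists were between -0.50 for macrophage and 0.47 for hepatocyte markers.

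The 5 genes whose level followed that of Cp most closely over the 24 arrays, among 14437 genes, were Tmem254a, Ang2, Ang4, Synj2 and Plac9a. Pearson's r with Cp was 0.88, 0.87, 0.87, 0.86 and 0.82, and Spearman's rho was 0.87, 0.86, 0.85, 0.89 and 0.78. Over the 20 arrays without the HFD arrays of experiment 1, r was 0.87, 0.86, 0.85, 0.93 and 0.80. The 24 points share strain, tissue and slide, so these values are a description of the arrays. Tmem254a, Ang2, Ang4 and Plac9a lie on chromosome 14, as does Lgals3, and Synj2 lies on chromosome 17. Ang2 and Ang4 encode angiogenin-type ribonucleases, and Ang2, Ang4, Tmem254a and Plac9a have close copies in the mouse genome whose transcripts a probe may not separate.

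Cp was lower on HFD than on chow in 9 of 12 pairs of arrays. In WT the difference was -0.49, 0.03 and -1.21 in the 3 aortic experiments, with a mean of -0.56 ± 1.07 (SE), and -1.49, -0.53 and -0.50 in muscle, with a mean of -0.84 ± 0.68. In KO it was 4.43, -1.15 and -1.22 in aorta, with a mean of 0.69 ± 1.07, and 1.90, -1.61 and -1.58 in muscle, with a mean of -0.43 ± 0.68. Experiment 1 stood apart in both KO tissues, by more than the spread of the other pairs. Without the HFD arrays of experiment 1 the KO mean was -1.18 ± 0.45 in aorta and -1.59 ± 0.30 in muscle, and the WT mean was -0.59 ± 0.45 and -0.51 ± 0.30. The KO response exceeded the WT response by 1.25 ± 1.51 in aorta and 0.41 ± 0.96 in muscle, and by -0.59 ± 0.64 and -1.08 ± 0.42 without those arrays.

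**Figure D3:**
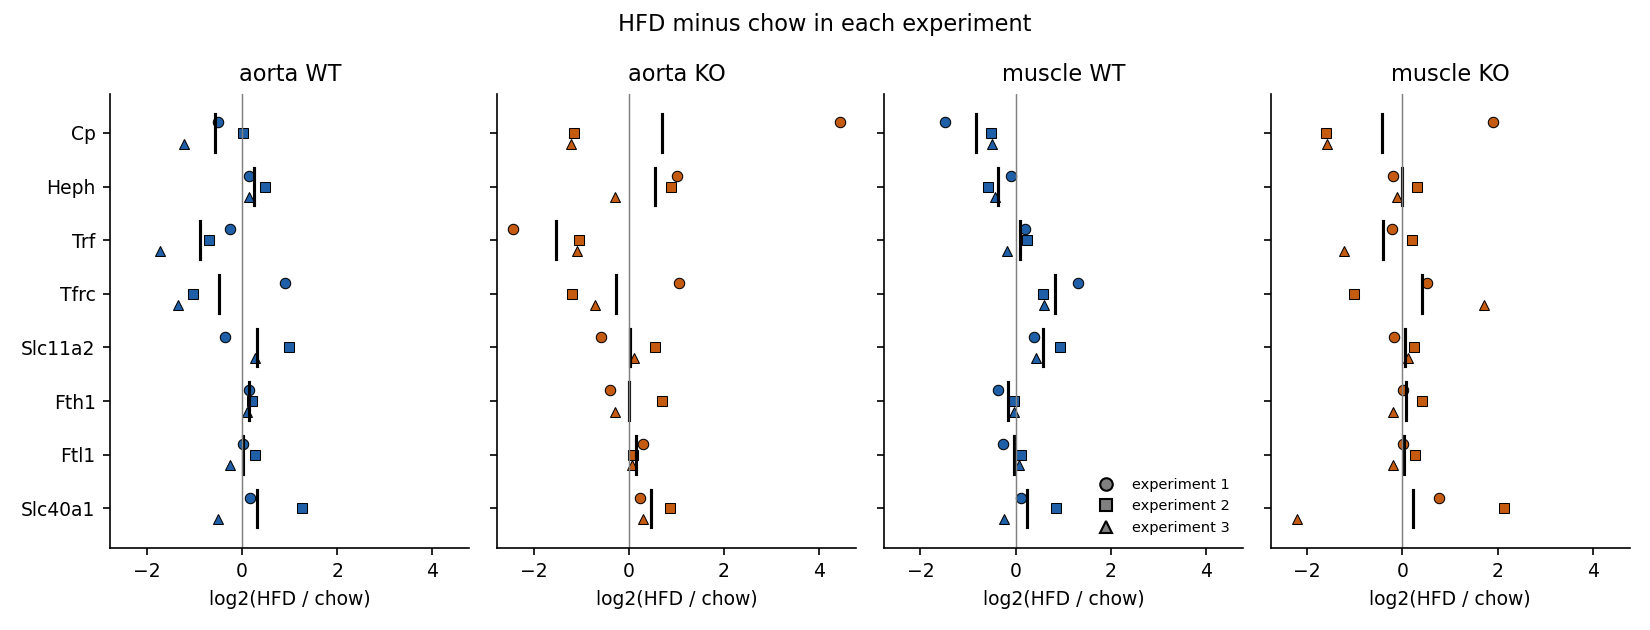
HFD minus chow (x axis, log2) for 8 genes in each experiment, by tissue and strain. Symbols give the experiment and black bars the mean of the 3. Cp of experiment 1 lies at 4.43 in KO aorta and 1.90 in KO muscle, away from the other KO pairs, and Trf lies below 0 in all 6 aortic pairs.

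Aortic endothelium held more Cp than muscle endothelium. In the 12 pairs of the same strain, diet and experiment, aorta minus muscle was between 0.82 and 3.36, and above 0 in all 12. Fitted over the 24 arrays with the slide as a random block, the difference was 2.46 ± 0.62, a 5.52-fold higher level in aorta, given as a description. The lowest pair was KO chow of experiment 1, and the 2 highest were HFD pairs, WT at 3.29 and KO at 3.36, of the same experiment. Without the HFD arrays of experiment 1 the difference was 2.24 ± 0.36. The tissues also differed in what else the sort held. All 6 fibroblast markers passed as higher in aorta, with a median difference of 3.28. All 7 skeletal muscle fibre markers passed as lower in aorta, with a median of -6.30, and so did 8 of 10 endothelial markers, with a median of -1.06. Of the hepatocyte markers 2 of 5 tested passed as higher in aorta, with a median of 1.11, and their summed signal was 2.47 to 16.01 times the 75th percentile in aorta and 0.06 to 1.04 times in muscle. The summed signal of the fibroblast list was between 280 and 604 times the 75th percentile on aortic arrays and between 23.2 and 221 times on muscle arrays. The part of these cells in the tissue differences was not tested.

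3 of the 8 tested genes passed as different between the tissues, Cp, Trf and Heph, all higher in aorta, while 29.3% of all probes passed, 11.5% higher and 17.8% lower in aorta. Cp is in these counts as a description only, since it was chosen by its level on these arrays. At an unadjusted p under 0.05 the same 3 genes passed, beside 40.8% of probes. The median of the 8 genes was 0.51 and that of all probes tested was -0.27. Without experiment 2, which left 4 slides, 0 of 8 passed. Cp was then at 2.36, Trf at 1.62 with an adjusted p of 0.072 and Heph at 0.71 with an adjusted p of 0.17. Under quantile normalization 5 passed, Fth1 and Ftl1 being added at 0.26 and 0.35. In the main fit they were at -0.04 and 0.15, so Fth1 changed sign with the scaling. The share of all probes that passed in these refits was not counted, so nothing is read from the changes in count.

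**Figure D4:**
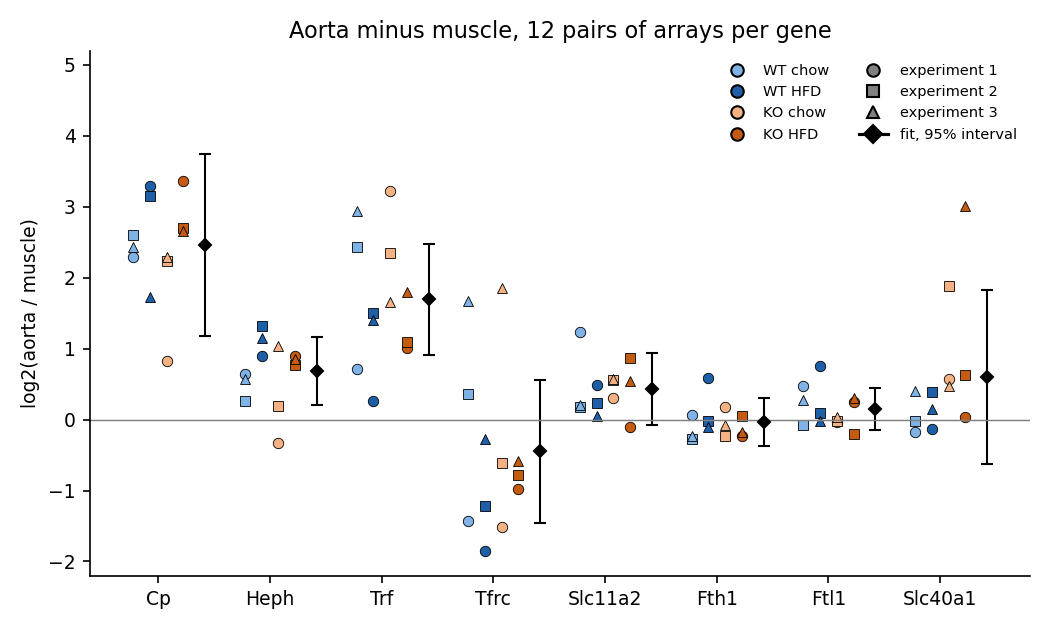
Aorta minus muscle (y axis, log2) for 8 genes, with 12 pairs of arrays per gene coloured by strain and diet, symbols for the experiment, and black diamonds for the fitted difference with its 95% interval. All 12 pairs of Cp and of Trf lie above 0, and the fitted values are 2.46 and 1.70.

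Hephaestin, encoded by Heph, is the membrane-bound ferroxidase related to ceruloplasmin. Its level was -0.25 to 1.59 on the aortic arrays, with a median of 0.87, and -0.35 to 0.56 on the muscle arrays, with a median of 0.16. The tissues overlapped, and aorta was higher in 11 of 12 pairs. The difference of 0.69 ± 0.23 had an adjusted p of 0.028. It missed the threshold at 0.61 without the HFD arrays of experiment 1, with an adjusted p of 0.087, and at 0.58 without experiment 3, with an adjusted p of 0.074. Without experiment 2 it missed as given above. When the 2 probes of Heph were averaged it was 0.27, with an adjusted p of 0.22. The other probe of Heph gave -0.15 ± 0.21, the opposite sign. Between the strains the brightest probe of Heph was higher on the KO array in 10 of 12 pairs. Its difference was within -0.09 to 0.48 in each tissue and diet and passed in none. On the other probe the KO mean was lower than the WT mean in aorta on chow (-2.52 against -2.43) and in muscle on HFD (-2.70 against -2.35). It was higher in aorta on HFD (-2.57 against -2.62) and in muscle on chow (-2.09 against -2.39), so the probes did not share 1 direction.

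Transferrin, the plasma iron carrier encoded by Trf, was lower on HFD than on chow in aorta without passing the test. On WT chow the level of Trf was -0.21, 0.71 and 1.67 in experiments 1, 2 and 3, and on WT HFD it was -0.46, 0.02 and -0.04. On KO chow it was 2.65, 0.76 and 0.94, and on KO HFD it was 0.22, -0.28 and -0.15. HFD was lower in all 6 aortic pairs, and in KO the diets did not overlap, as was so in that direction for 6.96% of all probes tested. The difference was -1.52 ± 0.41 in KO, a 2.87-fold lower level, with an adjusted p of 0.35, and -0.88 ± 0.41 in WT, with an adjusted p of 0.87. Neither passed. Without the HFD arrays of experiment 1 the differences were -1.07 and -1.20. The responses of the strains differed by -0.63 ± 0.58, and by 0.14 without those arrays.

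Adipocyte markers moved with Trf in aorta. The median level of the 8 markers, Adipoq, Plin1, Cidec, Lep, Cfd, Retn, Fabp4 and Lipe, was between 1.25 and 4.55 on the 6 chow arrays of aorta and between -1.41 and 0.67 on the 6 HFD arrays. All 7 markers tested were lower on HFD in both strains, with median differences of -3.47 in WT and -3.54 in KO, and 0 of 7 passed. The summed signal of the list was 169 to 213 times the 75th percentile on WT chow arrays, 97.4 to 99.2 times on WT HFD, 177 to 384 times on KO chow and 75.3 to 145 times on KO HFD. The highest value of Trf and the highest adipocyte sum were on the same array, KO chow of experiment 1. Lep, which encodes leptin, was well above background on no aortic array. All 10 endothelial markers were lower on HFD in aorta in both strains too, with median differences of -0.54 in WT and -1.01 in KO, and 0 of 10 passed. The part of adipocytes or of endothelial cells in the values of Trf was not tested.

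In muscle the level of Trf was between -1.94 and -0.57 on all 12 arrays, and HFD was lower than chow in 3 of 6 pairs. Every muscle array lay below every aortic array, which was so in that direction for 3.55% of all probes tested. Aorta minus muscle was 1.70 ± 0.38, a 3.24-fold higher level, with an adjusted p of 0.0018, and 1.91 without the HFD arrays of experiment 1. Adipocyte markers were higher in aorta by a median of 1.99, with 5 of 7 above 0, 2 passing as higher and 1 as lower, and hepatocyte markers differed as given above. The part of these cells in the tissue difference of Trf was not tested.

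The transferrin receptor Tfrc, the cell surface gate for transferrin-bound iron, was read by a probe spotted 10 times and was dim. Its level was -5.81 to -2.50 on the aortic arrays, where 10 of 12 were well above background, and -5.02 to -2.94 on the muscle arrays, where all 12 were. The aortic arrays of experiments 1, 2 and 3 had medians of -5.14, -4.64 and -3.17. In muscle of WT mice, Tfrc was -4.36, -4.00 and -4.17 on chow and -3.05, -3.43 and -3.57 on HFD. These did not overlap, as was so in that direction for 6.51% of probes, and the difference was 0.83 ± 0.49 and did not pass. In KO muscle the same difference was 0.52, -1.01 and 1.73, so the pairs did not share a direction. Aorta minus muscle was -0.45 ± 0.49.

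Slc11a2 encodes the transporter that carries ferrous iron out of the endosome. In muscle of WT mice its level was 1.06, 1.14 and 0.89 on chow and 1.45, 2.08 and 1.33 on HFD, again with no overlap. The difference of 0.59 had an adjusted p of 0.37, and in KO muscle the 3 pairs were at -0.18, 0.24 and 0.13. The other 2 probes of Slc11a2 gave 0.50 and 0.36 for the same WT difference, both above 0. Aorta minus muscle was 0.43 ± 0.24 for the brightest probe and -0.34 and -0.82 for the other 2, so the probes of this gene disagreed in sign between tissues, and their mean gave -0.25. With the experiment number as block in place of the slide, the brightest probe passed, with an adjusted p of 0.0105.

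Ferritin, the store built from a heavy chain with ferroxidase activity (Fth1) and a light chain (Ftl1), had the smallest spread of the 9 genes in each tissue. Fth1 was between 6.44 and 7.39 in aorta and between 6.47 and 7.33 in muscle, and Ftl1 was between 5.27 and 5.86 and between 5.05 and 5.84. The SD over the 12 arrays of a tissue was 0.28 and 0.23 for Fth1 and 0.20 and 0.23 for Ftl1. The probes of the 9 genes differ in brightness, so the order of their spreads is a description. The 4 diet differences of Fth1 were between -0.15 and 0.15 and those of Ftl1 between -0.02 and 0.15. The 95% intervals of these 8 differences reached from -0.71 to 0.86. Aorta minus muscle was within -0.04 to 0.15 for both chains, which passed only under quantile normalization, as given above.

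Ferroportin, the iron exporter encoded by Slc40a1, differed between the experiments. In muscle its level was -0.53 on both chow arrays, -0.42 on WT HFD and 0.24 on KO HFD in experiment 1, and between -4.16 and -1.08 on the 8 arrays of experiments 2 and 3. The muscle arrays of experiment 1 lay above all others, as was so in that direction for 3.21% of probes. In aorta the level was -0.70 to 0.27 in experiment 1, -3.29 to -0.46 in experiment 2 and -1.95 to -1.15 in experiment 3, with some overlap. Several marker lists differed between the experiments in muscle too. The summed signal of the 7 muscle fibre markers was 76.9 to 115 times the 75th percentile on the muscle arrays of experiment 1 and 15.99 to 54.6 times on the others. The median level of the 8 macrophage markers was -3.23 to -0.03 against -6.28 to -1.47, and that of the 6 fibroblast markers 3.26 to 5.21 against 1.27 to 4.00, both with overlap. Without overlap, the median of the Schwann cell list was -0.06 to 0.40 against -1.16 to -0.38, and of the erythroid list -2.59 to -2.04 against -3.84 to -2.65. The median of the endothelial list was lower in experiment 1, at 4.518 to 4.850 against 4.854 to 5.280. The part of these cells in the level of Slc40a1 was not tested, and experiment, slide and scan session cannot be told apart here. Within an experiment, KO was above WT in 6 of 6 aortic pairs, by 0.90 ± 0.70 on chow (0.74, 1.97 and 0.00 in the 3 experiments) and by 1.07 ± 0.70 on HFD (0.82, 1.58 and 0.80). Neither passed, and over all 24 arrays the difference was 0.49 ± 0.47. These SEs come from fits without the slide as block, and none of these differences passed with it. Aorta minus muscle was 0.60 ± 0.59.

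Hepcidin, the liver hormone encoded by Hamp, was too dim to test. Its probe was well above background on 6 of 12 aortic arrays and 1 of 12 muscle arrays, and on all 3 arrays of no group. The level was between -8.54 and -4.82 on 11 aortic arrays and between -9.21 and -6.75 in muscle. The aortic WT HFD array of experiment 2 had an outlier spot and gave no level, though it is among the 6 counted as well above background. No fold is given.

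**Figure D5:**
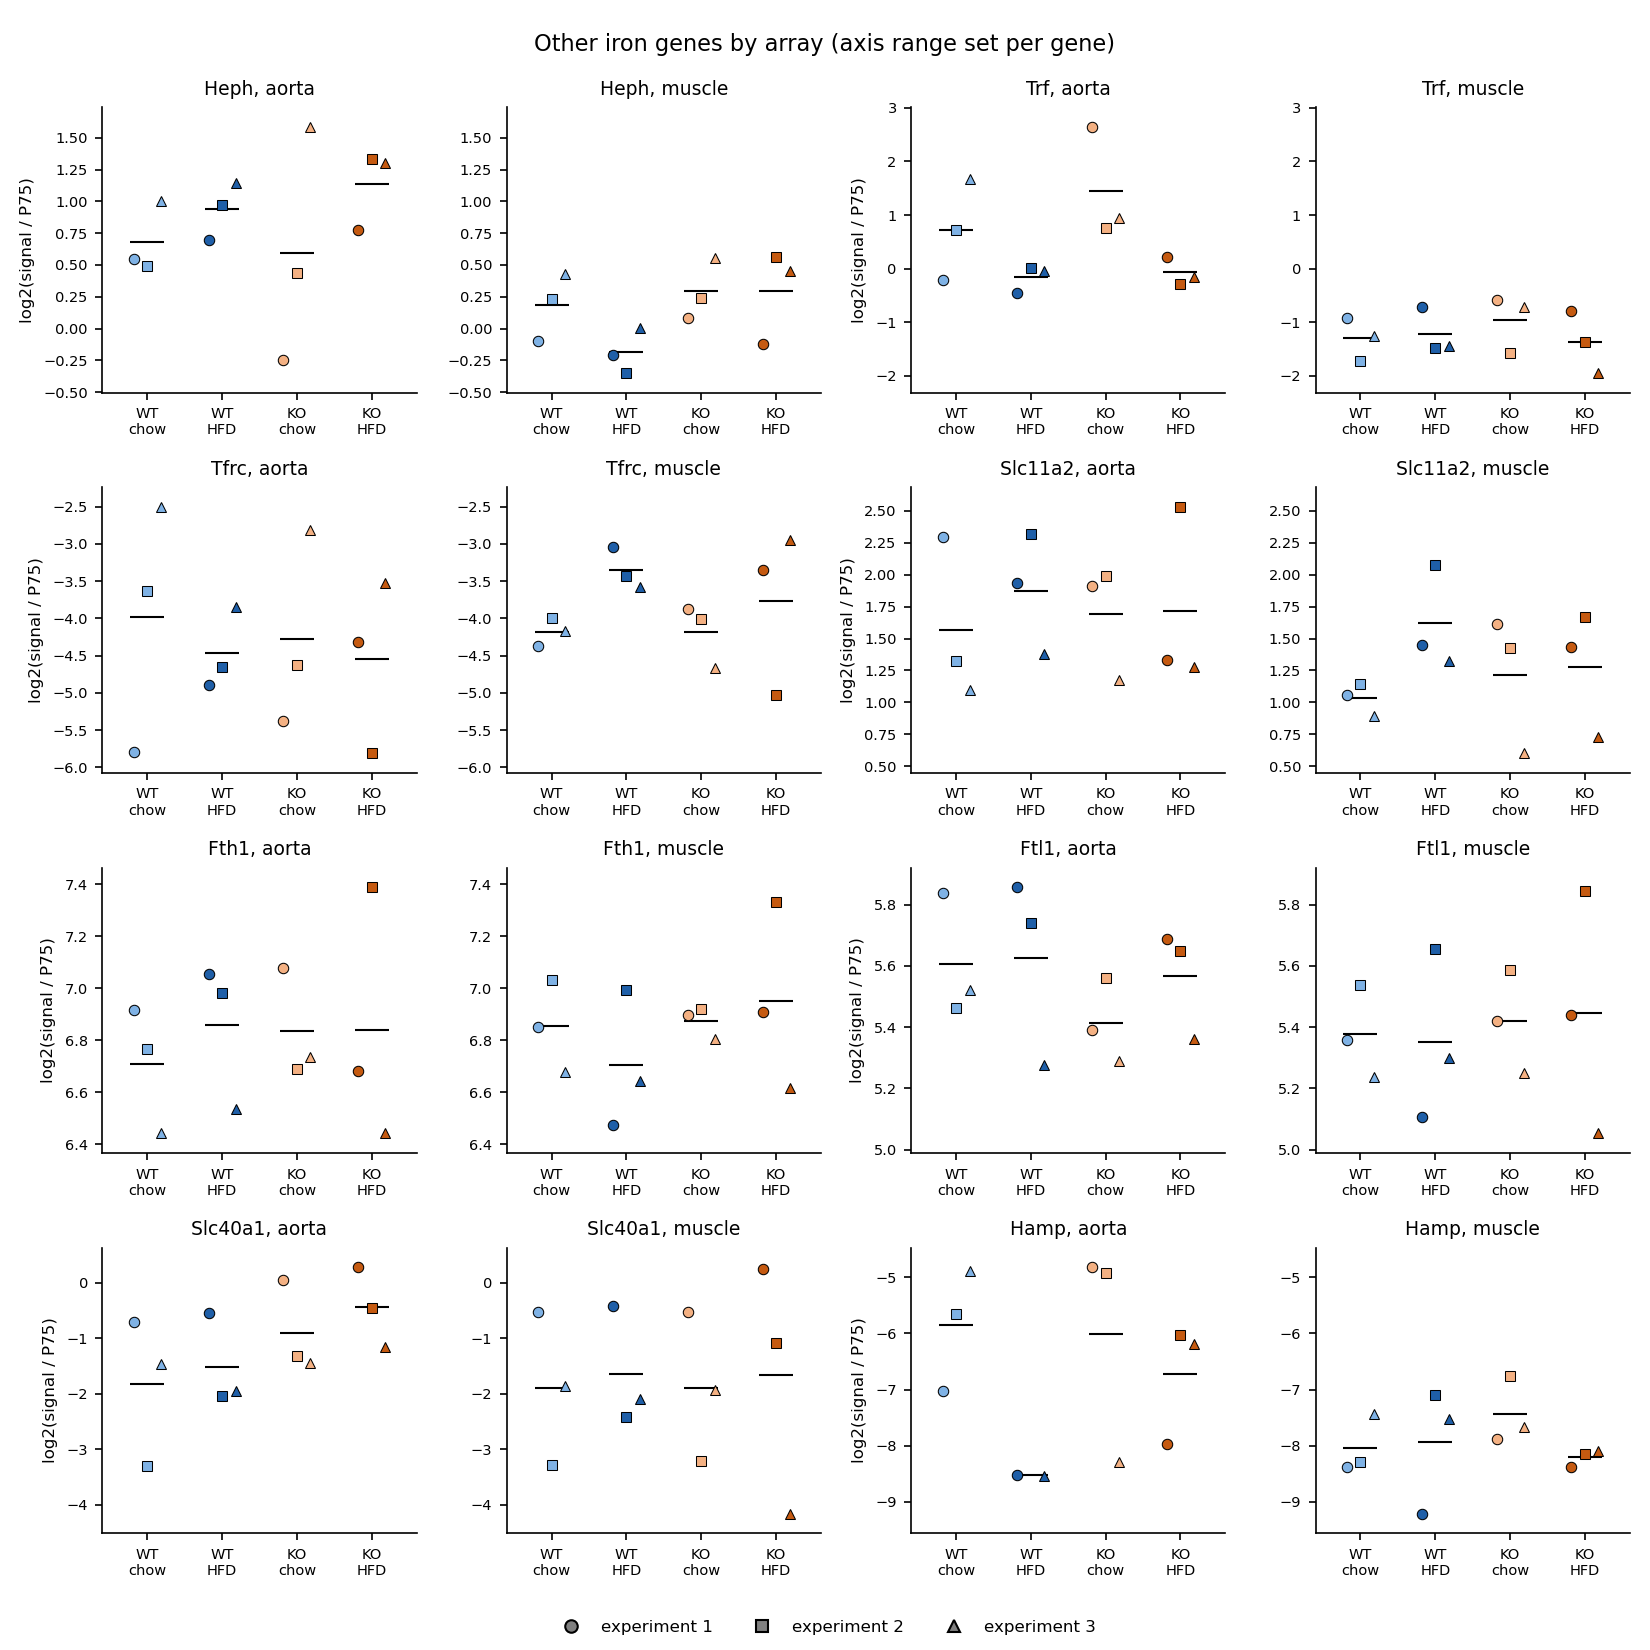
Levels of the other 8 genes (y axes, log2 of the signal over the array's 75th percentile, with a range per gene that is shared by the tissues) on each array by strain and diet, with symbols for the experiment and horizontal bars for group means. Slc40a1 is highest in experiment 1 in muscle, and Trf is lower on HFD than on chow in aorta. Hamp was well above background on 7 of the 24 arrays, 1 of which had an outlier spot and shows no level.

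With Cp left out, as in the strain counts, 0 of the other 7 tested genes passed in any of the 4 comparisons of diet. Among all probes, 0 of 25865 passed in each aortic comparison, 0 of 25682 in WT muscle and 1 in KO muscle (0%, 0%, 0% and 0.00389%). In limma at an unadjusted p under 0.05, 0 of these 7 genes passed in WT aorta (5.77% of probes) and 0 in KO muscle (8.49%). In KO aorta 1 passed, Trf (11.3%), and in WT muscle 1, Slc11a2 (12.1%). The methods' t-test with Benjamini-Hochberg adjustment also called 0 of these 7 in each. The median difference of the 8 genes, Cp included, was 0.08, 0.09, 0.03 and 0.05, against 0.03, -0.01, -0.02 and 0.00 over all probes tested. The difference between the responses of KO and WT passed for 0 of the 7 genes without Cp in either tissue, beside 0% of all probes. At an unadjusted p under 0.05 it passed for 0 of these 7, beside 2.62% in aorta and 4.12% in muscle.

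A wider list of 76 further genes of iron, haem and copper handling, 73 of them with a probe, was read beside these 9. Between the tissues, 27 of 71 tested passed, 18 higher and 9 lower in aorta, beside 29.3% of all probes, and the median difference was 0.02. Within a tissue, 70 were tested in aorta and 65 in muscle, so some entered this comparison through 1 tissue. The count was 16 without experiment 1 and 13 without experiment 2. The share of all probes that passed in those refits was not counted, so nothing is read from the change. Of the 12 genes of iron uptake, release and reduction, 7 were higher in aorta and 0 lower, with a median of 2.06. All 12 were tested within aorta but only 8 within muscle, so some entered the tissue comparison through aortic groups alone. The filter thus favours a higher level in aorta, and nothing is read from this split or median. The values of single genes that follow are a description, since which of them entered through 1 tissue alone was not examined. Scara5, a ferritin receptor, was 6.87 ± 0.65 higher, the metalloreductase gene Steap2 3.80 ± 0.58 and the metal importer gene Slc39a8 2.19 ± 0.31. Lcn2, which binds siderophores, was 2.31 ± 0.43 higher, and Tfr2, an iron sensor related to the transferrin receptor, 1.81 ± 0.39. Both missed the threshold narrowly without experiment 2, with adjusted p values of 0.0503 and 0.0518. Of the 14 genes of copper handling, 5 were higher, among them the copper-dependent cross-linking enzyme gene Loxl1 at 5.29 ± 0.49 and the metallothionein gene Mt1 at 3.45 ± 0.35, and 2 were lower. Of the 19 genes of haem handling, 5 were higher, among them Lrp1, the receptor for haem bound to haemopexin, at 2.88 ± 0.49, and 2 were lower, among them the haem transporter gene Flvcr2 at -2.62 ± 0.21. Of the 13 genes of iron sensing and hepcidin control, 1 was higher and 4 were lower, among them Erfe, which encodes a hepcidin-suppressing hormone, at -5.48 ± 0.59. Only 12 of these were tested within aorta and 12 within muscle, so here too some entered through 1 tissue. Of the 4 genes of iron storage and chaperones 1 was lower, and of the 9 mitochondrial iron genes 0 passed. Fibroblast and muscle fibre markers moved with the tissue as given above.

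In none of the other 11 comparisons did a gene of the wider list pass, and 0 to 7 had an unadjusted p under 0.05 in limma. For diet these were 5 and 7 of 70 in WT and KO aorta, beside 5.77% and 11.3% of all probes. In muscle they were 6 of 65 in each strain, beside 12.1% in WT and 8.49% in KO. Between the strains the counts were 0 to 2, beside 1.15% to 4.41% of probes. For the response difference they were 1 of 70 in aorta (2.62%) and 0 of 65 in muscle (4.12%). The genes named here had the largest mean changes among those with 1 direction in all 3 experiments. In aorta on HFD, Hp, which encodes the haemoglobin scavenger haptoglobin, was at -2.58 ± 0.56 in WT and -2.19 ± 0.56 in KO, with adjusted p values of 0.43 and 0.33. Cd163, its receptor on macrophages, was at -4.32 ± 1.42 in WT, and Tmprss6, a hepcidin regulator, at 2.85 ± 0.65. Loxl1 was at 1.72 ± 0.61 in KO aorta and 1.39 ± 0.24 in WT muscle, and the ferric reductase gene Cybrd1 at 1.70 ± 1.04 in KO aorta. In KO muscle Ltf, Lcn2 and Steap4 were at -2.35, -2.07 and -1.35, and in WT muscle Mt1 and Lrp1 were at -1.14 and -1.04.

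Between the strains, the corresponding genes in aorta on chow were Cd163 at -2.43 ± 1.43, with the mitochondrial transporter genes Abcb8 and Abcb10 at -0.59 and 0.50. In aorta on HFD they were Hp, the copper pump gene Atp7b and Bmp6, an inducer of hepcidin, at 1.13, 1.12 and 0.75. In muscle they were the metalloreductase gene Steap4, Tfr2 and Flvcr2 on chow at 0.82, 0.58 and -0.55, and Cybrd1, Tfr2 and Abcb10 on HFD at 1.31, 0.83 and -0.50. Each of these differences had an adjusted p of 1.00 in limma. Of 13 acute phase genes, listed because ceruloplasmin is an acute phase protein, 0 passed in the comparison of the strains over 24 arrays, with a median difference of -0.05.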

How the data were processed

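Per the file headers, intensities were read by the submitters with Agilent Feature Extraction 10.5.1.1 (9.1 in the submitters' processing notes) from 1-colour arrays. The deposited processed signal, an intensity already background-corrected by the authors' software, was divided by each array's 75th percentile over 43379 non-control spots, and log2 was taken. Spots marked as outliers were dropped and replicate spots averaged per probe. A deposited log2 table was used as an alternative. A probe was tested where at least 0.5 of its spots were well above background on every array of 1 group. The genes and gene lists were chosen with earlier results of these data known.

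limma 3.58.1 (R 4.3.3) was run over all tested probes with Benjamini-Hochberg adjustment and a threshold of 0.05: diet with each strain and experiment as a pair, strain on group means, and tissue with the slide as random block (correlation 0.27). Deviations from group means correlated over 0.1 in 2 of 6 aortic and 5 of 6 muscle pairs of HFD and chow and in 11 of 12 pairs of WT and KO (0.064 to 0.62). Arrays of 1 number and tissue share a slide. The diet block follows the study's ratios, and the strain fit with the slide as block is an alternative. Nothing says more than that experiments were independent pools, so p-values within a tissue measure the spread between pools. Aortic and muscle pools of 1 experiment may come from the same mice, and the strain fit over 24 arrays counts them as separate. In the tissue fit each slide held 1 tissue, so its p-values also hold differences between slides. Wider genes named are, per comparison within a tissue or between tissues, those that passed (at most 10) or else the 3 with the largest mean change of 1 sign in 3 experiments. Likeness to Cp is Pearson's r over 24 arrays. Motifs were searched with Python in RefSeq windows. The fits were tested on simulated data. The number of arrays limits the precision.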

Additional observations from a re-analysis of the deposited data

Results flagged for a closer look

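On the brightest probe of 2 genes, the HFD response of WT mice pointed one way in every aortic pair and the other way in every muscle pair. Opposite signs were looked for between several pairs of groups for each gene. The share of all probes that show them was not counted, so nothing is read from the number of genes. For Heph the mean was 0.26 in aorta and -0.37 in muscle, which are 0.63 apart (log2). For Fth1 it was 0.15 in aorta and -0.15 in muscle, which are 0.30 apart. Without the HFD arrays of experiment 1 the means were 0.31 and -0.50 for Heph. For Fth1 they were then 0.15 and -0.04, so most of its muscle mean rested on the array of experiment 1. The second probe of Heph did not share this pattern, with means of -0.19 in aorta and 0.04 in muscle and 2 of 3 pairs above 0 in each. The difference between the tissues was not tested in either gene, neither response passed in its own tissue, and experiments of the 2 tissues were on different slides. In KO mice the 3 pairs of a tissue did not share a sign for either gene.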

How the results depend on the processing

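All counts of genes that passed stayed within 1.5 times the value given under normexp background correction, the deposited log2 table (not run between tissues, whose constants differ there), no filter on dim probes, only probes well above background on every array, and the methods' t-test. Under quantile normalization 5 of the 9 genes passed between the tissues, and Fth1 changed sign there, from -0.04 to 0.26. Leaving out 1 experiment moved this count to between 0 and 3, that of the strain comparison over 24 arrays to between 0 and 1, and that of the wider list between the tissues to between 13 and 24. A replicate block by slide in the diet and strain comparisons, and none in the diet comparisons, changed no count. The strain fits share slides, so the blocked value is also given for Cp over the 24 arrays, as a description, -2.80 ± 0.44 (SE). With the experiment number as replicate block between the tissues, 4 passed, Slc11a2 (0.43) being added. The share of all probes that passed was not counted under these alternatives, so a changed count is not read as a trait of these genes.

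Without the experiment 1 HFD arrays, 4 values changed sign: HFD minus chow of Cp in KO aorta to -1.18, the KO minus WT response of Cp to -0.59 in aorta and -1.08 in muscle, and that of Trf in aorta to 0.14. With the mean over the probes of a gene, Slc11a2 between the tissues was -0.25 and Steap4 in muscle on chow -0.30. Leaving out 1 experiment at a time, 6 values took both signs. HFD minus chow of Cp ran from -1.18 to 1.64 in KO aorta and from -1.59 to 0.16 in KO muscle. The response difference of Cp ran from -0.59 to 2.46 in aorta and from -1.08 to 1.16 in muscle, and that of Trf in aorta from -1.26 to 0.14. Tfrc between the tissues ran from -1.003 to 0.051.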
